A study of Mus musculus with 18 samples.

Results

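The genes described here encode the contractile apparatus of skeletal muscle and the enzymes and calcium-handling proteins that serve it. They are 41 genes, chosen by symbol among the 19505 genes that the named probe sets of a mouse expression array stand for, and each was read by 1 probe set. The choice was made with earlier results of these data known. By the fibre type that each is best known for, 14 belong to fast-twitch fibres, 6 to slow-twitch fibres and 21 to both kinds. Skin and pituitary RNA of C57BL/6 mice, all labelled female and 5 to 6 weeks old, was hybridised to 18 Clariom S arrays of Affymetrix, with 3 arrays in each of 6 groups. Each tissue has a wild-type group, a knockout of the MIR205HG long noncoding RNA (lncKO) and a knockout of the microRNA miR-205 from the same locus (miR-205 KO). The labels name no other allele and no treatment, and do not say how either allele was made. The label protocol speaks of an ear piece, and the same text accompanies the pituitary samples. Samples carry the numbers of the labels, 1 to 9 in skin and 10 to 18 in pituitary, in the order wild type, lncKO, miR-205 KO. Whether replicates were taken from different animals is not stated, and p-values therefore reflect only how far these samples differ, which could be technical variation.

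The sarcomere is the repeating unit of striated muscle. Thick filaments of myosin slide along thin filaments of actin, which are anchored in Z discs, while titin spans from the Z disc to the M band and holds the thick filaments in register. Calcium released from the sarcoplasmic reticulum binds troponin C, which shifts troponin I, troponin T and tropomyosin on the thin filament and lets myosin bind actin. Most of these proteins come in fast and slow forms encoded by separate genes, and the form in use sets how quickly a fibre contracts. The mouse ear holds small striated muscles that move it, whereas the pituitary is a gland without skeletal muscle. In a bulk sample, fewer cells of a type and less RNA per cell cannot be told apart.

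The deposited values are intensities, reported here as log2 without further normalization, and array medians lay between 82 and 96 on the linear scale. An intensity of 16, or 4 on the log2 scale, served as a mark for dim signal, as 22.8% to 25.3% of probe sets fell at or under it, depending on the array. The tissues carried their defining markers. The summed intensity of 8 pituitary hormone genes was 2830677 to 3597632 on the pituitary arrays, and that of 8 keratinocyte genes was 670999 to 1289944 on the skin arrays. Sample 1, of wild-type skin, stood apart in growth hormone, with Gh at 11.29 against 2.81 to 6.25 on the other 8 skin arrays. Genes of the Y chromosome were looked up by symbol, and the 3 that were found went against the label of the pituitary samples. Kdm5d lay between 7.43 and 8.31 there against 2.58 to 3.17 in skin, Uty between 10.87 and 11.19 against 2.58 to 3.70, and Eif2s3y between 9.13 and 10.68 against 2.32 to 3.46. Tissue and these Y-linked levels therefore cannot be told apart in any comparison between skin and pituitary.

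The microRNA for which 1 of the knockouts is named, and the DNA just upstream of 6 of the muscle genes, are printed from RefSeq tables of the assembly GRCm38.p6. The level of this microRNA was not measured here in either knockout. Mature miR-205 (mmu-miR-205-5p) lies at chr1:193507503-193507524 on the minus strand, and its seed, bases 2 to 8, is in capitals.
mmu-miR-205-5p: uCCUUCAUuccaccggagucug
Muscle genes are classically bound by MyoD-family factors at E-boxes (CANNTG), by MEF2 proteins and, at CArG boxes, by serum response factor. The first 4 genes below rose in skin of both knockouts and the last pair did not pass the test, and capitals mark E-boxes, MEF2 sites and CArG boxes. Each run is the 250 bases before the annotated start, 5′ to 3′ on the gene's strand, and lies at chr2:76982548-76982797 (minus) for Ttn, chr2:164779735-164779984 (minus) for Tnnc2, chr1:66945057-66945306 (minus) for Myl1, chr15:77022728-77022977 (minus) for Mb, chr8:123894776-123895025 (minus) for Acta1 and chr11:67237562-67237811 (plus) for Myh4.
Ttn: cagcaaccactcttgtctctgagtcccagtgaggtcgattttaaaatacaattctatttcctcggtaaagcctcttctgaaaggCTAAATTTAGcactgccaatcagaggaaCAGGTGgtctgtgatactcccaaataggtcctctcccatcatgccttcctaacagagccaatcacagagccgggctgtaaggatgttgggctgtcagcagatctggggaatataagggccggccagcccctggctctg
Tnnc2: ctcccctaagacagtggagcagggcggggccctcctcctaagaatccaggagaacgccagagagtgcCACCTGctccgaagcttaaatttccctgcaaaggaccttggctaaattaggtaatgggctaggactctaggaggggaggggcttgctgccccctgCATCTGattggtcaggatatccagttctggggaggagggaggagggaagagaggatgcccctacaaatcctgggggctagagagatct
Myl1: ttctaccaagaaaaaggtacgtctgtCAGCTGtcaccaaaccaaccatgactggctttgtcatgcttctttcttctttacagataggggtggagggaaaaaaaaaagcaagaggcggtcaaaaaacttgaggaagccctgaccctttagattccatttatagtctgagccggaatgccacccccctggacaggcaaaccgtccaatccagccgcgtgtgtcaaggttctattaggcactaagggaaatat
Mb: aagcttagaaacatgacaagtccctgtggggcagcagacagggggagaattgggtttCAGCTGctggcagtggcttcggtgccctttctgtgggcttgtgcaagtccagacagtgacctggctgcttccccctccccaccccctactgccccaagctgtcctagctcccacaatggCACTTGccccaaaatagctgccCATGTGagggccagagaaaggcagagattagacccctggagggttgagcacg
Acta1: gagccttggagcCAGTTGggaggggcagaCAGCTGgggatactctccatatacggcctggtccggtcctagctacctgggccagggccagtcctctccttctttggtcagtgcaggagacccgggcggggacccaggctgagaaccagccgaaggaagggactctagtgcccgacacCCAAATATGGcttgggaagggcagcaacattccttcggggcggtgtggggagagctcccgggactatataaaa
Myh4: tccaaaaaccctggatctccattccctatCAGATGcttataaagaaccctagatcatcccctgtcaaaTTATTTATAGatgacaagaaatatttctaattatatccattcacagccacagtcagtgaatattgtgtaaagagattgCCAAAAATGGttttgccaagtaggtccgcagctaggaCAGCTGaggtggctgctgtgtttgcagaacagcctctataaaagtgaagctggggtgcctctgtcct
Of the 41 genes, 33 had such a window in the table, with 39 windows among them because some genes have several starts. On either strand, the E-box CANNTG was found in 84.6% of these windows against 66.2% of all 32851 windows of the same length. Its form CAGCTG stood in 46.2% against 13.0%, and its form CACCTG in 23.1% against 17.2%. A MEF2 site was found in 20.5% against 2.92%, in the windows of Casq2, Klhl41, Myh1, Myh4, Pgam2, Pvalb, Ttn and Xirp2. A CArG box was found in 12.8% against 1.47%, in those of Acta1, Ldb3, Myh4 and Myom1, and the MCAT letters CATTCC in 25.6% against 12.6%. These matches describe letters in a window and not binding. Both the risen and the unrisen genes printed above carry them, with CAGCTG in Myl1 and Mb as well as in Acta1 and Myh4.

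In wild-type mice the muscle genes were far higher in skin than in pituitary. Of the 41 genes, 38 were higher in skin (limma, adjusted p under 0.05, all 18 arrays in the fit), where 26.4% of the 19572 named probe sets were higher and 25.7% lower (52.1% in either direction). The median difference over the 41 was 4.46 on the log2 scale, and 0.01 over all named probe sets. It was 7.67 over the 14 fast-fibre genes, 3.67 over the 21 shared genes and 1.37 over the 6 slow-fibre genes. For 39 of the 41, every wild-type skin array lay above every wild-type pituitary array, which held for 27.8% of named probe sets.

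Myl1, the fast essential myosin light chain, measured 15.84, 15.75 and 14.94 in wild-type skin and 3.17, 4.25 and 4.00 in wild-type pituitary. The skin values are far from those of the pituitary, which lie around the dim mark, and the difference was 11.70 ± 0.34 on the log2 scale (SE, n = 3 per group; limma adjusted p = 5.98e-17). Acta1, the skeletal actin of the thin filament, measured 13.66, 14.12 and 12.98 against 3.46, 3.58 and 3.70, and its difference was 10.01 ± 0.34 (limma adjusted p = 7.51e-16). Acta1 was 1 of 7 muscle genes at or below 16 on every pituitary array, with Myh4, Myom2, Ryr1, Tcap, Tnnc2 and Tnni1, so that their differences against skin are bounded by the dim end of the scale. Not all muscle genes were dim in the gland. Tpm1, an alpha tropomyosin that other cells also make, lay between 12.40 and 12.89 on the 9 pituitary arrays. Pygm, the muscle form of glycogen phosphorylase, lay between 9.24 and 10.03. Tnnt1, the slow troponin T, lay between 8.43 and 9.80. These genes were above the dim mark on every pituitary array, as were 21 of the 41 in all.

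The genes that did not pass between wild-type tissues were Mybpc2, the fast myosin-binding protein C, at 0.52 ± 0.23 (limma adjusted p = 0.0612), Tnnc1, the slow troponin C, at 0.52 ± 0.31 (limma adjusted p = 0.18), and Casq2, the slow and cardiac calsequestrin, at 0.10 ± 0.31 (limma adjusted p = 0.817). Tnnc1 measured 7.79, 7.98 and 7.43 in wild-type skin and 7.66, 6.82 and 7.16 in the wild-type gland, which overlap. Eno3, the muscle enolase, was higher in skin by 1.64 ± 0.49 (limma adjusted p = 0.00792), but not past the threshold when wild-type skin sample 2 was left out (adjusted p = 0.0515). Over all genotypes, 36 of the 41 had their lowest skin array above their highest pituitary array, against 18.6% of named probe sets. The plot of log2 intensity by array shows both tissues side by side.

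**Figure D1:**
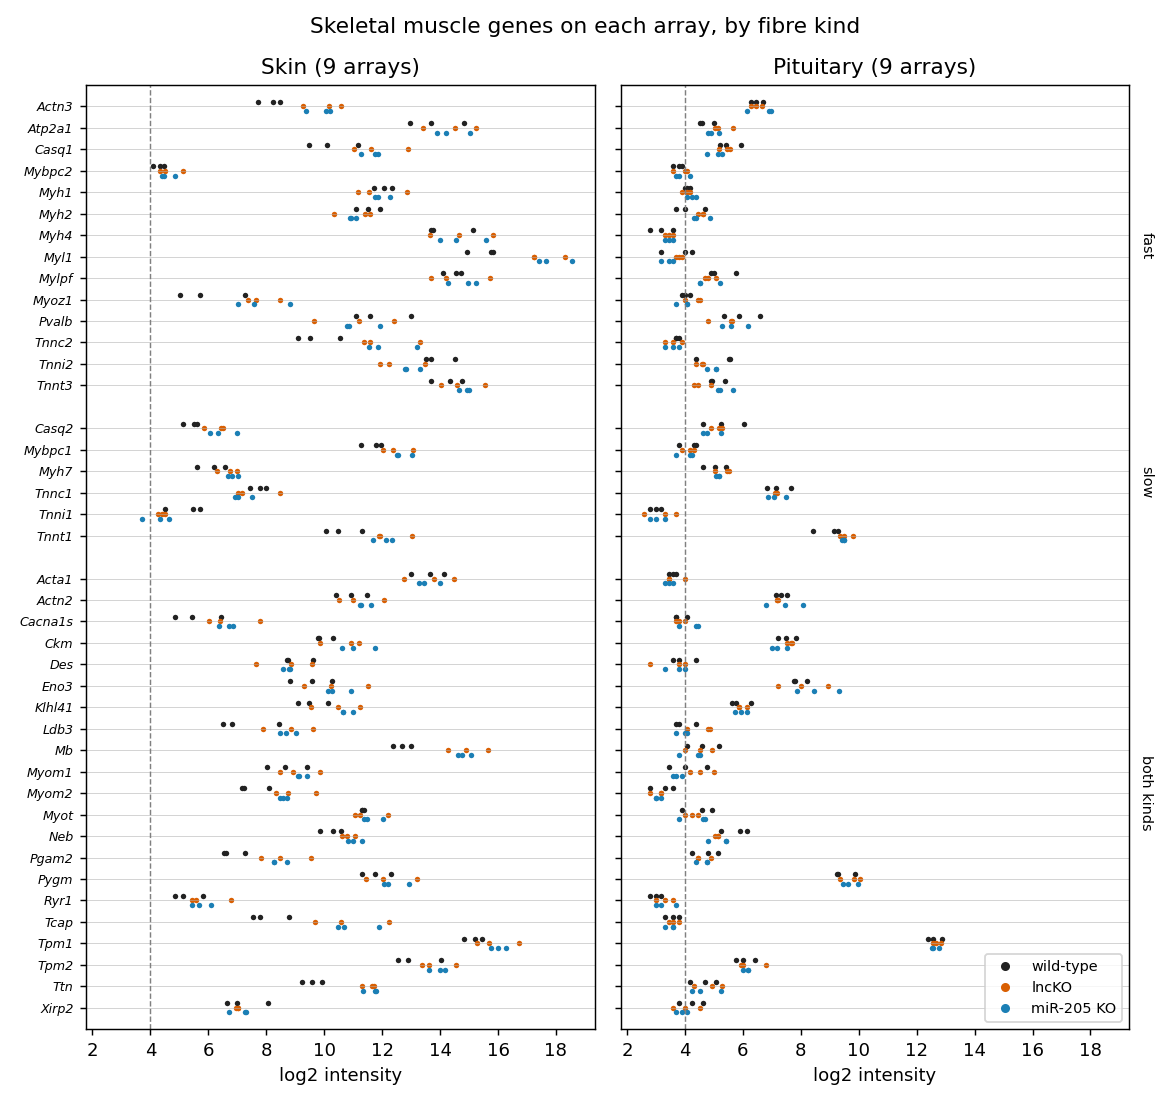
Log2 intensity (x axis) of the 41 muscle genes (y axis, grouped into fast-fibre, slow-fibre and shared genes) on the 9 skin arrays and the 9 pituitary arrays; each point is 1 array, black for wild type, orange for lncKO and blue for miR-205 KO, and the dashed line marks an intensity of 16. The skin points run from 3.70 to 18.54 and the pituitary points from 2.58 to 12.89, with Tpm1 the highest gene in the pituitary panel.

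In skin, a part of the muscle genes rose in each knockout while the myosin heavy chains and actin showed no call. Against wild-type skin, 12 of the 41 rose and 1 fell in lncKO skin (limma, adjusted p under 0.05, 9 skin arrays in the fit), where 6.21% of named probe sets rose and 9.17% fell. The miR-205 KO skin had 15 that rose and 1 that fell, where 6.79% of named probe sets rose and 10.0% fell. In either direction 15.4% of named probe sets were called for lncKO and 16.8% for miR-205 KO. The median log2 fold change over the 41 was 0.66 in lncKO skin and 0.76 in miR-205 KO skin, and -0.07 over all named probe sets in both. In lncKO skin 13 genes had every knockout array above every wild-type array, against 13.3% of named probe sets, and in miR-205 KO skin 19 did, against 14.9%. The knockouts share the same 3 wild-type arrays, so their values are given side by side and not as separate support. Genes past the threshold in both were Actn3, Mb, Myl1, Myom2, Myoz1, Pgam2, Tcap, Tnnc2, Tnnt1 and Ttn, which all rose.

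The count in miR-205 KO skin rested on single arrays. It was 8 without wild-type sample 1, 9 without wild-type sample 3, 7, 10 and 9 without miR-205 KO samples 7, 8 and 9 in turn, and 19 without wild-type sample 2. Without wild-type sample 1, the array with the high Gh, 9 rose and 2 fell in lncKO skin and 7 rose and 1 fell with miR-205 KO. With intensities below 16 raised to 16, 4 genes passed in lncKO skin and 4 in miR-205 KO skin, namely Actn3, Mb, Myl1 and Ttn in both. The fold changes of Tcap, Tnnc2, Pgam2, Tnnt1 and Myom2 were the same under that floor and their calls were lost, with adjusted p between 0.0555 and 0.0905 in lncKO skin and between 0.0505 and 0.136 in miR-205 KO skin. In lncKO skin the count lay between 10 and 13 whichever array was left out, and the median fold change was 0.32 without lncKO sample 5. After quantile normalization, 14 genes rose and 1 fell in lncKO skin, with 1524 higher and 1509 lower among all named probe sets in place of 1215 and 1794. For miR-205 KO 17 rose and 0 fell, with 1627 higher and 1631 lower in place of 1328 and 1965.

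**Figure D2:**
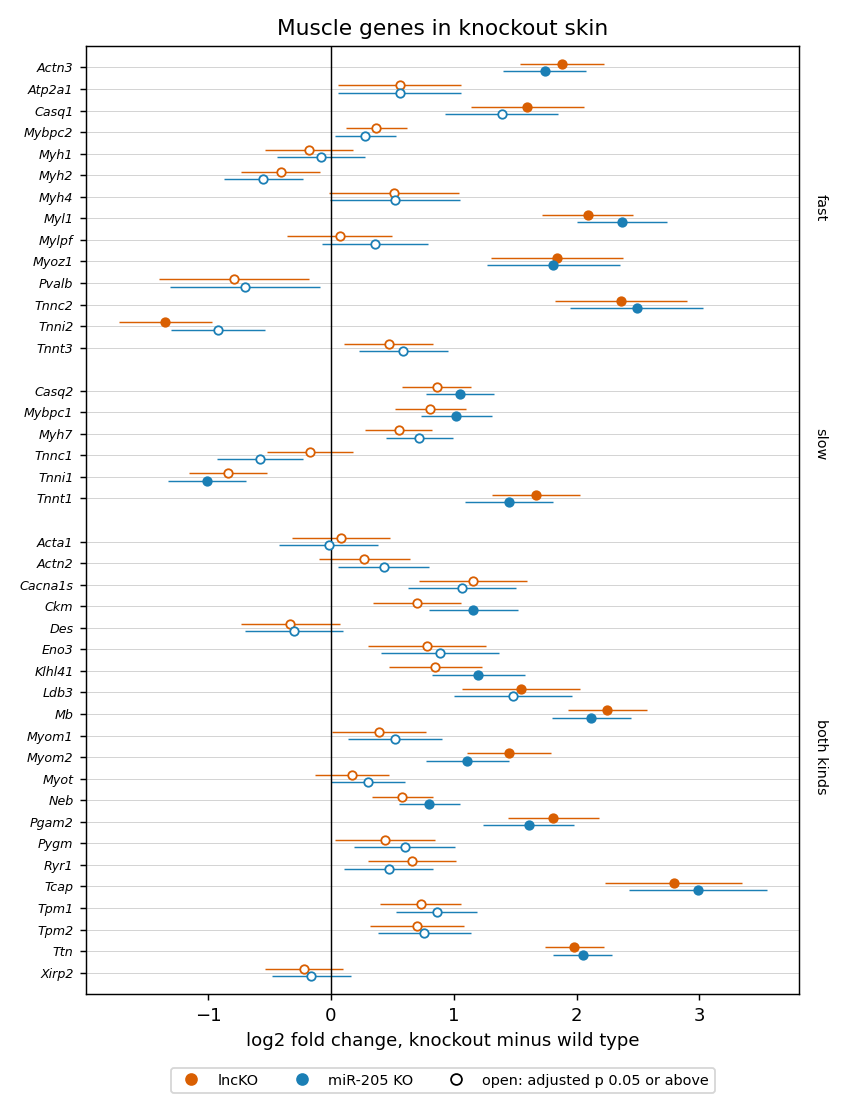
Log2 fold change of the 41 muscle genes in knockout skin (x axis, knockout minus wild type; bars are standard errors from limma, n = 3 arrays per group), orange for lncKO and blue for miR-205 KO, with fast-fibre, slow-fibre and shared genes apart on the y axis. Filled points passed an adjusted p of 0.05; Tcap lies farthest to the right at 2.79 and 2.99, and Tnni2 and Tnni1 are the filled points left of 0.

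The Z disc, the M band and titin hold the gene with the largest rise, Tcap. Of these 11 genes, 6 rose in lncKO skin and 5 in miR-205 KO skin, none fell, and the median log2 fold change was 1.45 and 1.11. Ttn, the giant spring that runs along the thick filament, measured 9.23, 9.93 and 9.58 in wild-type skin, 11.32, 11.66 and 11.71 in lncKO skin and 11.80, 11.35 and 11.75 in miR-205 KO skin. Every knockout array lay above every wild-type array by more than the spread within a group. Ttn rose by 1.98 ± 0.24 (3.95-fold; limma adjusted p = 0.000393) in lncKO skin and by 2.05 ± 0.24 (4.15-fold; limma adjusted p = 0.000325) in miR-205 KO skin. Tcap, the telethonin that ties titin to the Z disc, measured 7.77, 8.77 and 7.55 in wild-type skin, 9.67, 12.22 and 10.59 in lncKO skin and 10.48, 10.69 and 11.89 in miR-205 KO skin. The groups did not overlap, although the knockout arrays spread over more than 1 log2 unit. Tcap rose by 2.79 ± 0.56 (6.92-fold; limma adjusted p = 0.00625) and by 2.99 ± 0.56 (7.93-fold; limma adjusted p = 0.0042), the largest rise of the 41 genes in each knockout.

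The alpha-actinins, which crosslink thin filaments in the Z disc, differed between their fast and their general form. Actn3, made in fast fibres, measured 7.70, 8.46 and 8.23 in wild-type skin, 9.27, 10.59 and 10.16 in lncKO skin and 10.05, 9.38 and 10.19 in miR-205 KO skin. No knockout array reached down to the wild-type range, and Actn3 rose by 1.88 ± 0.34 (limma adjusted p = 0.00383) and by 1.74 ± 0.34 (limma adjusted p = 0.00547). Actn2, made in all fibres, measured 10.39, 11.48 and 10.93, then 10.52, 12.07 and 11.01, then 11.26, 11.24 and 11.60 in the same order. Its groups overlapped, with fold changes of 0.27 ± 0.37 (limma adjusted p = 0.661) and 0.43 ± 0.37 (limma adjusted p = 0.449). Myoz1, a calsarcin of fast fibres, rose by 1.84 ± 0.54 in lncKO skin and by 1.81 ± 0.54 in miR-205 KO skin (limma adjusted p = 0.0356 and 0.0355). Myom2, a myomesin of the M band, rose by 1.45 ± 0.34 and 1.11 ± 0.34 (limma adjusted p = 0.0139 and 0.0408). Ldb3, a PDZ and LIM protein of the Z disc, rose by 1.55 ± 0.48 in lncKO skin (limma adjusted p = 0.0452) and measured 1.48 ± 0.48 in miR-205 KO skin (limma adjusted p = 0.051). Leaving out single arrays ended the calls of Myoz1 in both knockouts, of Ldb3 in lncKO skin and of Myom2 in miR-205 KO skin. The arrays and ranges are given in the closing section. Des, the desmin of the intermediate filaments, Myom1, Myot and Xirp2 had no call, and their fold changes lay between -0.33 and 0.52.

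On the thin filament the troponins moved in different directions. Of 11 thin-filament genes, 2 rose and 1 fell in lncKO skin, and 4 rose and 1 fell with miR-205 KO. Tnnc2, the calcium-binding troponin C of fast fibres, measured 9.50, 10.56 and 9.08 in wild-type skin, 11.36, 13.29 and 11.59 in lncKO skin and 11.87, 11.55 and 13.21 in miR-205 KO skin. All knockout arrays were above all wild-type arrays, and Tnnc2 rose by 2.36 ± 0.54 (limma adjusted p = 0.0118) and by 2.49 ± 0.54 (limma adjusted p = 0.00844). Tnni2, the inhibitory troponin I of the same fibres, measured 13.68, 14.50 and 13.50 in wild-type skin, 11.92, 13.48 and 12.25 in lncKO skin and 12.80, 12.81 and 13.31 in miR-205 KO skin. Here every knockout array lay below every wild-type array, which held for 18.2% of named probe sets in lncKO skin and 20.0% in miR-205 KO skin. Tnni2 fell by 1.35 ± 0.38 in lncKO skin (limma adjusted p = 0.0301), a call that was lost when wild-type sample 2 or lncKO sample 4 or 6 was left out (adjusted p up to 0.125 over all alternatives). Its fold change in miR-205 KO skin was -0.92 ± 0.38 (limma adjusted p = 0.112). Tnnt3, the fast troponin T that binds tropomyosin, measured 14.34, 14.74 and 13.69, then 14.04, 15.55 and 14.57, then 14.92, 14.64 and 14.99. Its groups overlapped, and its fold changes were 0.47 ± 0.36 and 0.59 ± 0.36 (limma adjusted p = 0.401 and 0.273).

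The slow troponins were as uneven. Tnnt1, the slow troponin T, measured 10.06, 11.29 and 10.46 in wild-type skin, 11.89, 13.02 and 11.91 in lncKO skin and 12.13, 12.34 and 11.70 in miR-205 KO skin. It rose by 1.67 ± 0.36 (limma adjusted p = 0.00934) and by 1.45 ± 0.36 (limma adjusted p = 0.0166), with no overlap between knockout and wild-type arrays. The miR-205 KO call was lost without wild-type sample 1 or miR-205 KO sample 7 or 8 (adjusted p up to 0.0856 over all alternatives). Tnni1, the slow troponin I, was dim. It measured 4.52, 5.46 and 5.70 in wild-type skin, 4.52, 4.25 and 4.39 in lncKO skin and 4.64, 4.32 and 3.70 in miR-205 KO skin. Only sample 9 was under the dim mark, and knockout and wild-type arrays overlapped at sample 1. Tnni1 fell by 1.01 ± 0.32 in miR-205 KO skin (limma adjusted p = 0.046), with its call lost under 9 of the alternatives, and measured -0.84 ± 0.32 in lncKO skin (limma adjusted p = 0.0908). Tnnc1, the slow troponin C, measured 7.79, 7.98 and 7.43, then 7.16, 8.48 and 7.03, then 6.92, 7.03 and 7.51, with fold changes of -0.17 ± 0.35 and -0.58 ± 0.35 (limma adjusted p = 0.778 and 0.271).

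Actin itself had no call. Acta1 measured 12.75, 14.47 and 13.79 in lncKO skin and 13.27, 13.45 and 13.98 in miR-205 KO skin, which overlap its wild-type values given above. Its fold changes were 0.08 ± 0.40 and -0.02 ± 0.40 (limma adjusted p = 0.918 and 0.98), and their sign turned when single arrays were left out. Tpm1 and Tpm2, the tropomyosins, measured 0.73 ± 0.33 and 0.70 ± 0.38 in lncKO skin and 0.86 ± 0.33 and 0.76 ± 0.38 in miR-205 KO skin, with limma adjusted p between 0.0945 and 0.227. Neb, the nebulin that runs along the thin filament, rose by 0.80 ± 0.25 in miR-205 KO skin (limma adjusted p = 0.0425). Klhl41, a kelch protein that keeps nebulin stable, rose there by 1.20 ± 0.38 (limma adjusted p = 0.0459). In lncKO skin Neb measured 0.58 ± 0.25 and Klhl41 0.85 ± 0.38 (limma adjusted p = 0.129 and 0.147). Both calls were lost without wild-type sample 1 or 3 or any single miR-205 KO sample.

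Among the 8 thick-filament genes, a light chain rose and no heavy chain had a call. Myl1 measured 17.25, 18.30 and 17.23 in lncKO skin and 17.65, 17.43 and 18.54 in miR-205 KO skin, all above the wild-type values of 14.94 to 15.84. It rose by 2.09 ± 0.37 (4.25-fold; limma adjusted p = 0.00316) and by 2.37 ± 0.37 (5.16-fold; limma adjusted p = 0.00157). Mylpf, the fast regulatory light chain that sits on the same heavy chain, measured 14.54, 14.73 and 14.10 in wild-type skin, 14.20, 15.71 and 13.68 in lncKO skin and 14.96, 14.26 and 15.24 in miR-205 KO skin. Its groups overlapped, with fold changes of 0.07 ± 0.43 and 0.36 ± 0.43 (limma adjusted p = 0.932 and 0.601). Mybpc1, the slow myosin-binding protein C, rose by 1.02 ± 0.29 in miR-205 KO skin (limma adjusted p = 0.0314) and measured 0.81 ± 0.29 in lncKO skin (limma adjusted p = 0.0805). The miR-205 KO call was lost without wild-type sample 1 or 3, without any single miR-205 KO sample and with the floor at 16. Its adjusted p was up to 0.111 over all alternatives. Mybpc2, the fast form, measured 0.37 ± 0.25 and 0.28 ± 0.25.

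The myosin heavy chains are the motors of the sarcomere, and each fibre type is named for the one it makes. Myh4, of the fastest fibres, measured 13.67, 15.14 and 13.77 in wild-type skin, 13.66, 15.81 and 14.65 in lncKO skin and 14.56, 14.01 and 15.57 in miR-205 KO skin. Myh1, of fast fibres between Myh4 and Myh2 in speed, measured 12.07, 12.33 and 11.73, then 11.18, 12.85 and 11.56, then 11.87, 11.74 and 12.28. Myh2, of fast oxidative fibres, measured 11.51, 11.94 and 11.09, then 10.34, 11.57 and 11.40, then 10.91, 10.88 and 11.11. All 3 overlapped between genotypes, with fold changes in lncKO skin of 0.51 ± 0.53, -0.18 ± 0.36 and -0.41 ± 0.32 and in miR-205 KO skin of 0.52 ± 0.53, -0.08 ± 0.36 and -0.55 ± 0.32 (limma adjusted p between 0.257 and 0.9). Myh7, the slow heavy chain, measured 5.61, 6.57 and 6.19, then 6.30, 6.74 and 6.98, then 7.04, 6.81 and 6.69. Its fold changes were 0.55 ± 0.27 and 0.72 ± 0.27 (limma adjusted p = 0.191 and 0.0885), and all miR-205 KO arrays lay above the wild-type ones. Myh1, Myh2 and Myh4 are neighbouring genes of near-identical sequence on chromosome 11, so a probe set may read more than its own gene. The probe sequences were not used here.

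Of the 6 genes that store, release and take up calcium, 1 rose in each knockout. Casq1, the calsequestrin that holds calcium in the reticulum of fast fibres, rose by 1.60 ± 0.46 in lncKO skin (limma adjusted p = 0.0342), and the call was lost without wild-type sample 1 or 3 or lncKO sample 5 or 6 (adjusted p up to 0.154 over all alternatives). Casq2, its slow and cardiac counterpart, measured 5.13, 5.49 and 5.61 in wild-type skin, 6.51, 6.44 and 5.86 in lncKO skin and 6.99, 6.34 and 6.07 in miR-205 KO skin. It rose by 1.05 ± 0.28 in miR-205 KO skin (limma adjusted p = 0.0223) and measured 0.86 ± 0.28 in lncKO skin (limma adjusted p = 0.055). The miR-205 KO call of Casq2 was lost without wild-type sample 1 or miR-205 KO sample 7 (adjusted p up to 0.102 over all alternatives). Casq1 measured 1.39 ± 0.46 in miR-205 KO skin (limma adjusted p = 0.0565). Cacna1s, the voltage sensor of the muscle membrane, measured 1.16 ± 0.44 and 1.07 ± 0.44 without passing the test (limma adjusted p = 0.0921 and 0.112). Ryr1, the release channel, Atp2a1, the calcium pump of fast fibres, and Pvalb, the parvalbumin that buffers calcium there, had no call either. Pvalb was the lowest of these, at -0.79 ± 0.61 and -0.70 ± 0.61, with wild-type values of 11.11, 12.98 and 11.57 that spread more widely than the difference.

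Of 5 genes of oxygen and energy supply, 2 rose in lncKO skin and 3 in miR-205 KO skin. Mb, the myoglobin that stores oxygen, measured 12.69, 13.00 and 12.38 in wild-type skin, 14.91, 15.66 and 14.26 in lncKO skin and 14.75, 14.61 and 15.08 in miR-205 KO skin. The lowest knockout array stood more than 1 log2 unit above the highest wild-type array. Mb rose by 2.25 ± 0.32 (4.76-fold; limma adjusted p = 0.000918) and by 2.12 ± 0.32 (4.35-fold; limma adjusted p = 0.00128). Pgam2, the muscle phosphoglycerate mutase of glycolysis, measured 6.61, 7.28 and 6.54 in wild-type skin, 7.83, 9.56 and 8.46 in lncKO skin and 8.28, 8.28 and 8.71 in miR-205 KO skin. It rose by 1.81 ± 0.37 (limma adjusted p = 0.00733) and by 1.61 ± 0.37 (limma adjusted p = 0.0118), with no overlap. Ckm, the muscle creatine kinase that regenerates ATP, rose by 1.16 ± 0.36 in miR-205 KO skin (limma adjusted p = 0.0444), a call lost without any single wild-type sample or without miR-205 KO sample 7 or 9 (adjusted p up to 0.163 over all alternatives). It measured 0.70 ± 0.36 in lncKO skin (limma adjusted p = 0.207). Eno3 and Pygm, of glycolysis and glycogen breakdown, had fold changes between 0.44 and 0.89 and no call.

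Fast-fibre and slow-fibre genes were both split between genes that rose and genes that did not. In lncKO skin 5 of 14 fast-fibre genes rose and 1 fell, 1 of 6 slow-fibre genes rose, and 6 of the 21 shared genes rose, with medians of 0.49, 0.68 and 0.70. In miR-205 KO skin 4 of 14 fast-fibre genes rose, 3 of 6 slow-fibre genes rose and 1 fell, and 8 of 21 shared genes rose, with medians of 0.54, 0.87 and 0.86. The median of each kind lay above the -0.07 of all named probe sets in both knockouts, and no difference between the kinds was tested.

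Single skin arrays carried many muscle genes up or down at once. In wild-type skin, sample 2 held the highest value of its group for 37 of the 41 genes, where 36.4% of named probe sets had theirs in that sample. In lncKO skin sample 5 held the highest value for 36 (37.3% of named probe sets), and in miR-205 KO skin sample 9 for 30 (34.4%). The mean log2 intensity over the 41 genes was 9.70, 10.52 and 9.76 in wild-type skin, 10.17, 11.49 and 10.57 in lncKO skin and 10.74, 10.56 and 11.05 in miR-205 KO skin. Wild-type sample 2 thus stood above lncKO sample 4 in this mean, so the groups overlap in lncKO skin and, by a small margin, do not in miR-205 KO skin. The 14 fast-fibre genes alone averaged 11.11, 12.06 and 11.11, then 11.39, 12.95 and 11.87, then 12.01, 11.74 and 12.64, and here the wild type overlapped both knockouts. The median SD of a muscle gene within a group was 0.51 in wild-type skin, 0.75 in lncKO skin and 0.31 in miR-205 KO skin, against 0.29, 0.28 and 0.24 for all named probe sets. On the pituitary arrays the mean over the 41 lay between 5.09 and 5.25.

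The fold changes were unequal from gene to gene, as differences between 2 genes on the same array illustrate. The pairs were picked after their values were seen and are given as a description, without a test. Tnnc2 and Tnni2 are parts of the same fast troponin complex. The log2 intensity of Tnnc2 minus that of Tnni2 was -4.18, -3.94 and -4.42 on the wild-type arrays, -0.56, -0.18 and -0.66 on the lncKO arrays and -0.93, -1.26 and -0.10 on the miR-205 KO arrays. The 3 wild-type values are far below all 6 knockout values, and the mean shifted by 3.71 and 3.41. Myl1 minus Mylpf, both light chains of fast myosin, was 1.30, 1.02 and 0.84 in wild-type skin, 3.05, 2.60 and 3.56 in lncKO skin and 2.69, 3.17 and 3.31 in miR-205 KO skin. Actn3 minus Actn2 was -2.69, -3.03 and -2.69, then -1.25, -1.48 and -0.85, then -1.20, -1.86 and -1.41. Tnnt1 minus Tnni1, of the slow troponin complex, shifted by 2.51 and 2.46, and Ttn minus Neb by 1.40 and 1.25. In these pairs the knockout arrays and the wild-type arrays did not overlap. Of 14 pairs looked at, 10 were so separated in both knockouts, 1 (Myh2 minus Myh4) in lncKO skin alone and 3 in neither. Most pairs set a gene that rose in lncKO skin against one that did not rise. The separation was thus largely fixed by the choice of pairs, and no share of other pairs was counted. The 3 were Tcap minus Ttn, Myh1 minus Myh4 and, from the slow troponin complex, Tnnc1 minus Tnni1. Tnnc1 minus Tnni1 was 3.26, 2.52 and 1.73 in wild-type skin, 2.64, 4.24 and 2.64 in lncKO skin and 2.28, 2.71 and 3.81 in miR-205 KO skin.

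**Figure D3:**
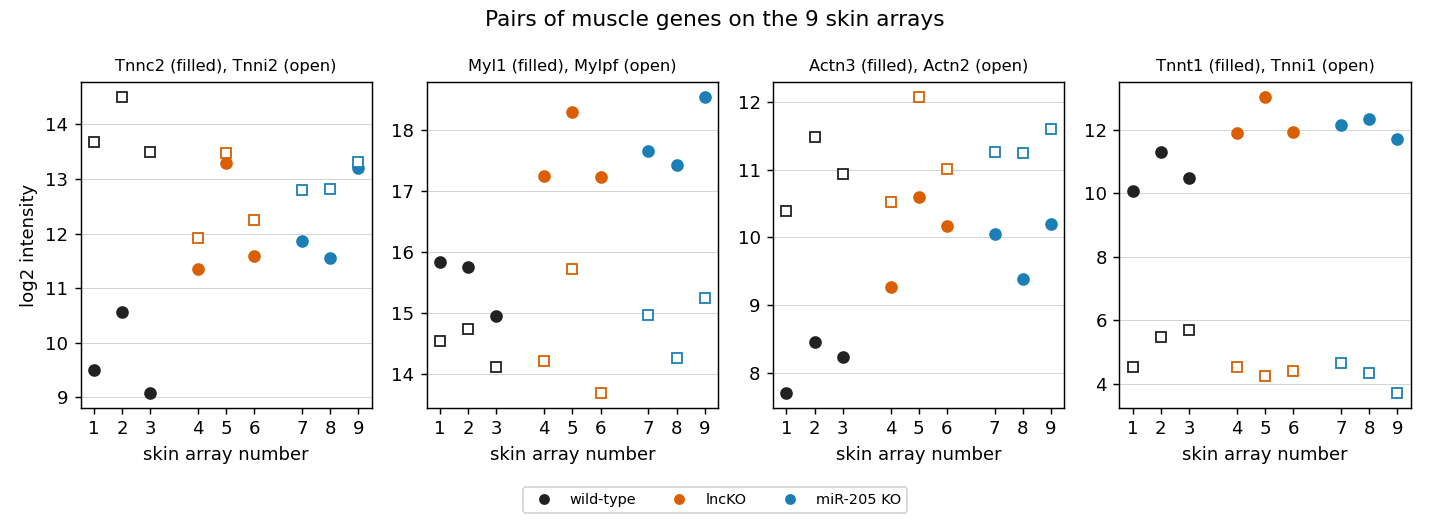
Log2 intensity (y axis) of 4 pairs of muscle genes on the 9 skin arrays (x axis, sample number), with the first gene of a pair as filled circles and the second as open squares; black is wild type, orange lncKO and blue miR-205 KO. Tnnc2 minus Tnni2 lies between -4.42 and -3.94 in wild-type skin and between -1.26 and -0.10 in the knockouts.

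Taking off the array's mean over the 41 moves all fold changes of a knockout by the same amount and keeps their order. Relative to that mean, Tcap was higher by 2.04 in lncKO skin and 2.20 in miR-205 KO skin, Tnnc2 by 1.62 and 1.70, Mb by 1.50 and 1.33, and Myl1 by 1.34 and 1.57. At the other end, the relative level of Tnni2 changed by -2.09 and -1.71, that of Tnni1 by -1.59 and -1.80, that of Pvalb by -1.54 and -1.49, that of Myh2 by -1.16 and -1.34 and that of Des by -1.08 and -1.09. Genes such as Tpm1, at -0.01 and 0.07, and Tpm2, at -0.04 and -0.03, moved with the mean. Both ends of this order hold genes of fast fibres, with Tnnc2 and Myl1 at one and Tnni2, Pvalb and Myh2 at the other.

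**Figure D4:**
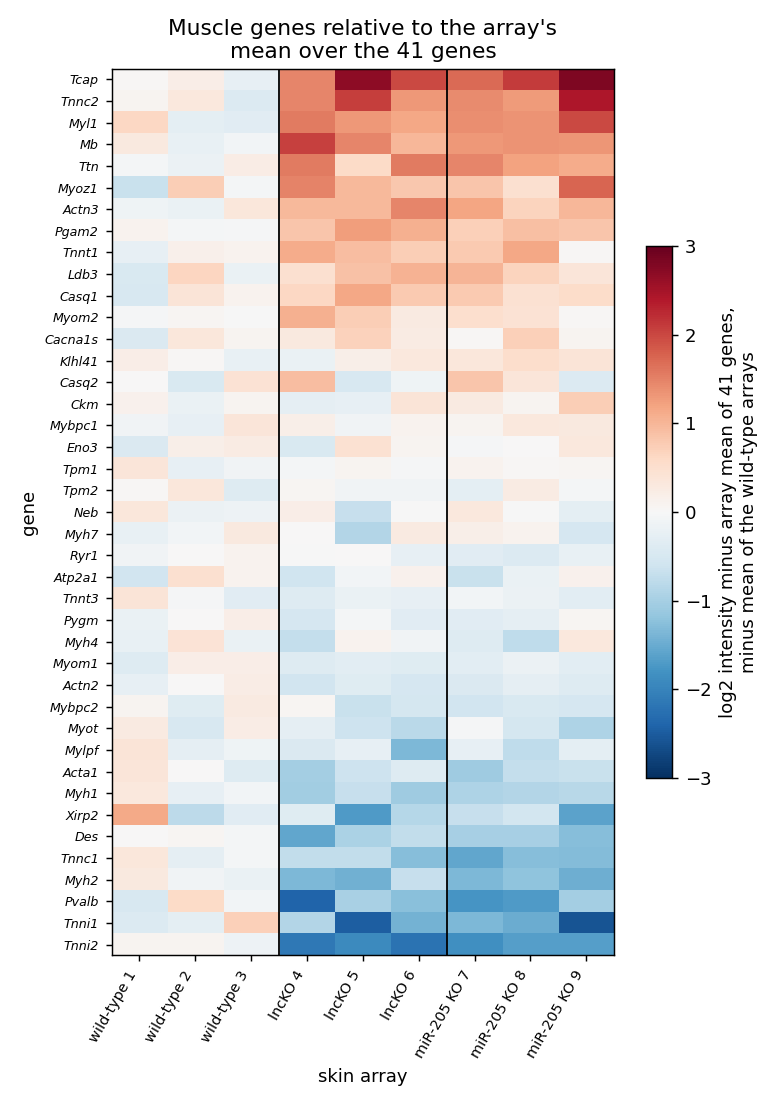
Log2 intensity of each muscle gene (y axis) on each skin array (x axis), less the mean over the 41 genes on that array and less the gene's mean over the wild-type arrays so treated; red is higher and blue lower than wild type, on the scale beside the map. Genes are ordered by their average over both knockouts, from Tcap at the top (2.04 and 2.20) to Tnni2 at the bottom (-2.09 and -1.71).

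Between the knockouts no muscle gene differed in skin. None of the 41 passed the test, as limma called 0% of named probe sets here. Under an unadjusted p of 0.05 were 0 of the 41, against 637 of all 19572 named probe sets. The median of lncKO minus miR-205 KO was -0.07 over the 41 and -0.01 over all named probe sets, and no gene had separate arrays, which 3.60% of named probe sets had with lncKO higher and 3.72% with lncKO lower. The differences ran from -0.46 ± 0.36 for Ckm to 0.41 ± 0.35 for Tnnc1, so that differences of that size could not be told from 0 with 3 arrays a group.

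In the pituitary no muscle gene passed the test in any comparison. In lncKO pituitary 0 of 41 did, where limma called 0.700% of named probe sets (0.342% higher and 0.358% lower). In miR-205 KO pituitary 0 did, where 0.107% were called (0.0409% higher and 0.0664% lower). Between the knockouts 0 did, where 0.291% were called (0.138% with lncKO higher and 0.153% with lncKO lower). An unadjusted p under 0.05 was seen for 6, 2 and 3 of the 41 in these comparisons. Among all 19572 named probe sets it was seen for 2447, 1462 and 2182. In lncKO pituitary the arrays of 2 genes lay wholly above the wild type and of 1 below, against 8.84% and 7.99% of named probe sets. In miR-205 KO pituitary 1 lay above and 0 below, against 5.89% and 4.58%. Between the knockouts lncKO lay above for 3 and below for 2, against 7.49% and 8.38%. The medians were 0.01, -0.07 and 0.07, against 0.01, 0.01 and -0.01 over all named probe sets. Tnnt1 measured 9.14, 9.27 and 8.43 in wild-type, 9.50, 9.37 and 9.80 in lncKO and 9.48, 9.43 and 9.51 in miR-205 KO pituitary. Its knockout arrays lay just above the wild-type ones, with fold changes of 0.61 ± 0.22 and 0.53 ± 0.22 (limma adjusted p = 0.283 and 0.644). Neb measured 5.25, 6.13 and 5.91, then 5.13, 5.04 and 5.13, then 5.43, 5.43 and 4.81, with fold changes of -0.66 ± 0.24 and -0.54 ± 0.24 (limma adjusted p = 0.29 and 0.663). Tnni2, at -0.62 ± 0.28 in lncKO pituitary (limma adjusted p = 0.386), passed the test when wild-type sample 10 was left out, the 1 muscle gene to do so.

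The difference between the tissues was tested as an interaction, with the signs of the effects kept. A larger effect in skin thus means a higher log2 fold change there than in pituitary, and a smaller effect a lower one. Neb, for example, was counted as larger with a positive fold change in skin and a negative one in pituitary. The lncKO effect was larger in skin than in pituitary for 9 of the 41 genes and smaller for 0, where 3.37% of named probe sets were larger in skin and 5.88% smaller (9.25% in all). The miR-205 KO effect was larger in skin for 11 and smaller for 0, where 3.69% were larger and 6.26% smaller (9.95% in all). Mb had an lncKO effect larger in skin by 2.37 ± 0.47 (limma adjusted p = 0.00416) and a miR-205 KO effect larger by 2.47 ± 0.47 (limma adjusted p = 0.00311). Myl1 had differences of 2.09 ± 0.48 and 2.77 ± 0.48 (limma adjusted p = 0.00977 and 0.00143), and Ttn of 1.78 ± 0.42 and 2.03 ± 0.42 (limma adjusted p = 0.0112 and 0.00478). The miR-205 KO count of 11 was 7 without wild-type skin sample 3, miR-205 KO skin sample 9, wild-type pituitary sample 10 or miR-205 KO pituitary sample 18, and 6 without miR-205 KO skin sample 7.

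Other genes of skeletal muscle were read in 5 further lists. The lists were drawn up with earlier results of these data known, and their medians are given beside those of the 41. Of 36 further sarcomere genes, 7 rose in lncKO skin and 10 in miR-205 KO skin and none fell, with medians of 0.72 and 0.67, where 6.21% and 6.79% of named probe sets rose and 9.17% and 10.0% fell. Ankrd2, a stretch-responsive ankyrin-repeat protein of the sarcomere, measured 4.39, 5.64 and 5.98 in wild-type skin, 7.45, 8.46 and 7.84 in lncKO skin and 7.32, 6.85 and 7.94 in miR-205 KO skin. It rose by 2.58 ± 0.41 (limma adjusted p = 0.0017) and 2.03 ± 0.41 (limma adjusted p = 0.00581), with no overlap. Trim63, the ubiquitin ligase MuRF1 of muscle protein breakdown, rose by 1.91 ± 0.28 and 1.61 ± 0.28 (limma adjusted p = 0.00127 and 0.00324), and its relative Trim54 by 1.86 ± 0.27 and 1.72 ± 0.27 (limma adjusted p = 0.00106 and 0.00167). The wild-type values of Trim54, at 3.17, 3.32 and 4.09, lay around the dim mark, so the size of its rise is uncertain. Mypn, a Z-disc scaffold, rose by 1.48 ± 0.29 in lncKO skin (limma adjusted p = 0.00533), and Nexn, an actin-binding protein, by 1.54 ± 0.30 in miR-205 KO skin (limma adjusted p = 0.00552). Neither was higher in that knockout alone. Mypn measured 5.73, 5.64 and 5.32 in miR-205 KO skin against 4.70, 4.00 and 4.32 in wild-type skin. Nexn measured 10.64, 9.94 and 10.39 in lncKO skin against 8.86, 9.79 and 9.03 in wild-type skin.

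Of 20 genes of the muscle membrane and the triad, where the membrane meets the reticulum, 6 rose in lncKO skin and 4 in miR-205 KO skin and none fell. Hrc, a calcium-binding protein of the reticulum, measured 7.92, 7.10 and 6.83 in wild-type skin, 9.16, 10.42 and 9.25 in lncKO skin and 9.72, 9.40 and 9.52 in miR-205 KO skin. It rose by 2.32 ± 0.35 and 2.26 ± 0.35 (limma adjusted p = 0.00134 and 0.00151). Srl, the sarcalumenin of the same compartment, rose by 1.74 ± 0.25 and 1.65 ± 0.25 (limma adjusted p = 0.000995 and 0.00134). Sypl2, a triad protein, rose by 1.47 ± 0.26 and 1.64 ± 0.26 (limma adjusted p = 0.00301 and 0.00161). Sln, the sarcolipin that slows the calcium pump, rose by 1.49 ± 0.42 and 1.90 ± 0.42 (limma adjusted p = 0.0321 and 0.0101). Of 17 further genes of muscle metabolism 0 passed the test by limma in either knockout, where 15.4% and 16.8% of named probe sets were called. Their medians were 0.32 and 0.44. An unadjusted p under 0.05 was seen for 4 and 2 of the 17, against 6055 and 6284 of all 19572 named probe sets.

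Of 15 regulators of muscle formation, 2 rose and 1 fell in lncKO skin and 3 rose and 1 fell with miR-205 KO, with medians of 0.15 and 0.12. Beside the shares of all named probe sets given above, these counts are small and are read gene by gene. Myog, the myogenin that drives differentiation, measured 4.52, 4.86 and 4.09 in wild-type skin, 5.67, 5.98 and 6.02 in lncKO skin and 5.95, 5.98 and 6.07 in miR-205 KO skin. It rose by 1.40 ± 0.23 and 1.51 ± 0.23 (limma adjusted p = 0.00243 and 0.00158), with no overlap, from wild-type values close to the dim mark. Pax7, which marks muscle stem cells, measured 4.91, 4.75 and 4.58, then 3.70, 3.91 and 4.00, then 4.17, 3.81 and 4.09, close to the dim mark. It fell by 0.88 ± 0.21 and 0.73 ± 0.21 (limma adjusted p = 0.0148 and 0.0325). Pax3, its relative, rose by 1.07 ± 0.21 and 1.18 ± 0.21 (limma adjusted p = 0.0063 and 0.00367), and Myf6 rose by 1.26 ± 0.32 in miR-205 KO skin (limma adjusted p = 0.0181). Of 13 probe sets of the nerve-muscle junction, 1 rose and 1 fell in each knockout, with medians of 0.07 and 0.00. These counts are near the shares of all named probe sets, of which 6.21% and 6.79% rose and 9.17% and 10.0% fell. Chrnb1, an acetylcholine receptor subunit, rose by 0.90 ± 0.24 and 1.01 ± 0.24 (limma adjusted p = 0.024 and 0.0134). A probe set of Ache, the acetylcholinesterase, fell by 0.86 ± 0.23 and 1.36 ± 0.23 (limma adjusted p = 0.022 and 0.00229). Another probe set of Ache did not fall and had no call. It measured 5.55, 6.23 and 6.29 in wild-type skin, 6.25, 6.25 and 6.38 in lncKO skin and 5.98, 6.48 and 6.94 in miR-205 KO skin.

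Markers of other cell types moved in the same skin samples, and their part in the muscle results was not tested. Of 8 measured adipocyte genes 6 rose in each knockout, with medians of 1.34 and 1.38, and their summed intensity was 86079 to 142149 in wild-type skin, 168588 to 263811 in lncKO skin and 171363 to 309555 in miR-205 KO skin. Of 10 cartilage genes 6 rose in each, with medians of 1.22 and 1.26, and sums of 13579 to 19297, 42409 to 76885 and 50617 to 67452. Matn1 was the 1 cartilage gene at or below 16 on all skin arrays. Of 12 hair genes 5 fell in lncKO skin and 4 in miR-205 KO skin, with sums of 406 to 11367, 261 to 633 and 328 to 521. Of 8 keratinocyte genes 2 rose in each, with medians of only 0.12 and 0.15, and 3 and 2 of the 8 lay below 0. Their sums were 670999 to 813299, 1083981 to 1289944 and 1149530 to 1276122. Fibroblast genes had 2 of 6 that rose in each knockout, with medians of 0.37 and 0.11. Their sums were 858214 to 974024 in wild-type skin, 1322265 to 1634449 in lncKO skin and 1436462 to 1516921 in miR-205 KO skin. The adipocyte, cartilage, keratinocyte and fibroblast sums thus did not overlap between wild type and knockouts. A sum weighs its brightest genes most, and on every skin array these were Krt10 among the keratinocyte genes and Dcn among the fibroblast genes. Endothelial genes had 0 of 6 past the test by limma. An unadjusted p under 0.05 was seen for 1 and 0 of them, against 6055 and 6284 of all 19572 named probe sets. Their sums were 2397 to 3194, 3360 to 3588 and 2895 to 3934, which overlap in miR-205 KO skin. The sums of 5 nerve-sheath genes (45546 to 83792, 41882 to 55331 and 42152 to 65112) and of 5 macrophage genes (56005 to 114890, 66713 to 75652 and 69877 to 101694) overlapped. Muscle of other kinds was read beside the skeletal genes. Of 10 smooth-muscle genes 1 rose in each knockout, and their sums of 3281 to 4960, 2032 to 4619 and 2885 to 3538 overlapped. Of 8 heart genes 2 rose and 1 fell in lncKO skin, and 3 rose and 1 fell with miR-205 KO. Among all named probe sets 6.21% were higher and 9.17% lower for lncKO, against 6.79% higher and 10.0% lower for miR-205 KO. The heart sums were 706 to 972, 1001 to 2570 and 1841 to 2845. This list shares Sln with the membrane and triad genes, so the rise of Sln is counted in both lists. Sln was the brightest heart gene on every knockout skin array and weighs most in the knockout sums. Nppa and Nppb, the natriuretic peptides of heart muscle, were at or below 16 on all 9 skin arrays.

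The muscle genes themselves followed the mean of the fast-fibre genes to different degrees over the 9 skin arrays. Pearson's r of a gene with that mean, the gene itself left out, was 0.96 for Eno3, Pygm and Ryr1 and 0.95 for Myh4, and it was 0.65 for Ttn, 0.69 for Myl1 and 0.72 for Mb. Tnni2 had 0.07, Xirp2 -0.36 and Tnni1 -0.52. These values are descriptions over arrays that share 3 genotypes. Outside the muscle lists, the 10 probe sets most like the fast-fibre mean were those of Ddx23 (r = 0.971), Pcdh19 (0.968), Usp13 (0.966), Nkd1 (0.965), Dnajc9 (0.956), Siah3 (0.953), Mxra7 (0.953), Dusp15 (0.948), Arl2bp (0.943) and Mpc1 (0.939). Ddx23 measured 9.49, 9.85 and 9.61 in wild-type skin, 9.68, 10.48 and 9.95 in lncKO skin and 9.95, 9.86 and 10.18 in miR-205 KO skin, a far narrower range than the muscle genes themselves.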

How the data were processed

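For 18 Clariom S arrays the authors deposited linear, whole-number intensity values of 22206 probe sets. How the intensities were background-corrected, summarised and normalized is not given in the sources used here. Of the probe sets, 19572 carried 1 gene symbol in the platform annotation, and their symbols were checked by gene ID against a RefSeq table. Intensities were log2 transformed with no pseudocount and not normalized again, so any scaling by the authors remains in the values. Each comparison was tested with limma 3.58.1 in R 4.3.3 (lmFit, then eBayes as supplied). Tests were two-sided, p-values were adjusted by Benjamini-Hochberg across all 19572 named probe sets, and the threshold was 0.05. The 9 arrays of a tissue entered 1 fit (6 residual degrees of freedom), and comparisons across tissues used all 18 arrays (12 residual degrees of freedom). Errors beside fold changes are standard errors with n = 3 arrays per group, and rose and fell are used of genes past the threshold. Every adjusted p comes from limma. Precision is limited by the number of arrays. The fit was tested on simulated data. No pair of arrays shared more than 5.26% of its values, so none was treated as a repeat of another.

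The 41 genes, the other lists and the alternatives were chosen with earlier results of these data known. By rule, values in every array are given for up to 8 genes per comparison and direction with the smallest adjusted p, and for the troponins, myosin heavy chains and alpha-actinins in any case. Of other muscle lists up to 4 genes per list and comparison are named, and a few more genes were named or given by array after their values were seen. The mean of 14 fast-fibre genes served to find the 10 most similar probe sets. Motifs were searched in the 250 bases before each start. Alternatives were quantile normalization, median centring, a floor at an intensity of 16, only probe sets with a mean above 5 on the log2 scale, a variance trend with robust estimation, only the groups compared, and leaving out each array.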

Additional observations from a re-analysis of the deposited data

Results flagged for a closer look

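For 20 results the effect of a knockout differed between skin and pituitary by the interaction test of limma (adjusted p under 0.05), in every case with the larger value in skin. Values are the skin effect minus the pituitary effect on the log2 scale, with 3 arrays in each group. For the lncKO effect the difference was 2.74 for Tcap, 2.50 for Tnnc2, 2.37 for Mb, 2.09 for Myl1, 1.92 for Pgam2, 1.88 for Actn3, 1.78 for Ttn, 1.64 for Myom2 and 1.24 for Neb. For the miR-205 KO effect it was 3.06 for Tcap, 2.77 for Myl1, 2.66 for Tnnc2, 2.47 for Mb, 2.03 for Ttn, 1.85 for Casq1, 1.70 for Pgam2, 1.54 for Actn3, 1.48 for Casq2, 1.44 for Ckm and 1.34 for Neb. Of these genes Tcap, Tnnc2 and Myom2 were at or below the dim mark of 16 on all 9 pituitary arrays, Myl1 on 8 and Mb on 2, where a change is harder to see. Leaving out single arrays ended the call of Myom2 and Neb for lncKO (adjusted p up to 0.055 and 0.0846). For miR-205 KO it ended that of Neb (up to 0.0603), Pgam2, Actn3, Casq1, Casq2 and Ckm. All of these but Neb also lost it with a floor at an intensity of 16. Over all alternatives the adjusted p reached 0.0718 for Pgam2, 0.0853 for Actn3, 0.101 for Casq1, 0.102 for Casq2 and 0.111 for Ckm.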

How the results depend on the processing

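No paired analysis was possible because no sample number recurs between groups. With a floor at an intensity of 16, 4 muscle genes passed in lncKO skin in place of 13, 4 in miR-205 KO skin in place of 16, and 5 for the miR-205 KO difference between tissues in place of 11. Under that floor the prior degrees of freedom of limma fell from 7.03 to 0.54 in skin, and Actn3, Mb, Myl1 and Ttn were the genes that passed in both knockouts. With single arrays left out, the counts ranged from 10 to 13 in lncKO skin, 7 to 19 in miR-205 KO skin, 0 to 1 in lncKO pituitary, 37 to 39 between wild-type tissues, 7 to 11 for the lncKO difference between tissues and 6 to 13 for the miR-205 KO difference. No gene passed between the skin knockouts, in miR-205 KO pituitary or between the pituitary knockouts under any array left out. In skin, Casq1, Ldb3, Myoz1 and Tnni2 lost their lncKO call without certain arrays, Ldb3 without wild-type sample 1 or 3 or lncKO sample 5 or 6 and Myoz1 without any array compared but wild-type sample 2. Casq2, Ckm, Klhl41, Mybpc1, Myom2, Myoz1, Neb, Tnni1 and Tnnt1 lost their miR-205 KO call, Myom2 without wild-type sample 1 or 3 or any miR-205 KO sample, Myoz1 without wild-type sample 1 or 3 or miR-205 KO sample 7 or 9 and Tnni1 without any array compared but wild-type sample 1. Tnni1 also lost it with quantile normalization, median centring, the floor and only the groups compared.

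Reversed signs occurred only for genes without a call. Mylpf in lncKO skin was -0.01 with quantile normalization, Acta1 and Myh1 in miR-205 KO skin were 0.07 and 0.00 with median centring, and Casq2 between tissues was -0.05 with quantile normalization. With single arrays left out, the lncKO fold change ranged from -0.32 to 0.54 for Acta1, -0.17 to 0.61 for Actn2, -0.77 to 0.20 for Des, -0.67 to 0.16 for Myh1, -0.04 to 1.04 for Myh4, -0.52 to 0.50 for Mylpf, -0.00 to 0.75 for Myom1, -0.18 to 0.39 for Myot, -0.06 to 0.83 for Pygm, -0.63 to 0.09 for Tnnc1 and -0.52 to 0.19 for Xirp2. The miR-205 KO fold change ranged from -0.33 to 0.25 for Acta1, -0.24 to 0.06 for Myh1 and -0.45 to 0.26 for Xirp2, and the difference between tissues from -0.23 to 0.47 for Casq2. Of all single-gene alternatives, 1617 kept direction and side of the threshold, 142 lost a call, 21 gained one and 29 reversed. The cause of these changes was not tested. Signals at the dim mark limit what can be seen in pituitary.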

Other observations

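Of the further muscle lists, 1 of 17 metabolism genes and 1 of 15 regulators of muscle formation rose in lncKO pituitary, and 0 of 20 membrane and triad genes, 36 sarcomere genes and 13 nerve-muscle junction probe sets did by limma (0, 4 and 3 at an unadjusted p under 0.05 in either direction). Of all 19572 named probe sets 0.342% were higher, and 2447 had an unadjusted p under 0.05 in either direction. Mettl21e, a methyltransferase known from muscle, measured 6.92, 6.75 and 6.39 in wild-type, 9.55, 9.14 and 8.95 in lncKO and 7.48, 8.41 and 7.65 in miR-205 KO pituitary. It rose by 2.53 ± 0.26 in lncKO pituitary (limma adjusted p = 0.00294). Pdk4, a kinase that turns down glucose oxidation and is made in many tissues, measured 8.34, 8.49 and 7.59, then 12.04, 11.31 and 10.24, then 8.86, 9.19 and 10.29. It rose by 3.06 ± 0.45 in lncKO pituitary (limma adjusted p = 0.0123). In skin neither passed the test in a knockout, at 1.10 ± 0.43 and 0.58 ± 0.43 for Mettl21e (lncKO and miR-205 KO; limma adjusted p = 0.1 and 0.375) and 0.27 ± 0.53 and -0.23 ± 0.53 for Pdk4 (limma adjusted p = 0.765 and 0.802).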
